A study of Mus musculus with 12 samples.

Results

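The 10 genes described here build the junctions that join heart muscle cells end to end. They were chosen by name, from the protein each encodes, out of the 26921 genes of the count table, with earlier results of these data known. They are the connexin genes Gja1, Gja5 and Gjc1, the desmosome genes Dsp, Pkp2, Jup, Dsg2 and Dsc2, the cadherin gene Cdh2 and the scaffold gene Tjp1, and each had 1 row in the table. Left ventricular RNA of mice aged 16 weeks was sequenced to ask what the loss of Gch1 in cardiomyocytes changes. Gch1 encodes GTP cyclohydrolase, the enzyme that starts the synthesis of tetrahydrobiopterin. The 6 WT mice were Gch1 flox/flox without Cre, and the 6 cmGch1 KO mice were Gch1 flox/flox and carried heterozygous Cre recombinase driven in cardiomyocytes by the α-MHC promoter. Both groups thus carried the floxed alleles, and the presence of Cre and the loss of Gch1 cannot be told apart between them. Other cardiac cells keep the gene in this model.

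The intercalated disc is the border at which cardiomyocytes meet. Gap junctions there, built from connexins, let current pass from cell to cell, while desmosomes and adherens junctions tie the intermediate filaments and the actin of neighbouring cells together. Connexin 43, from Gja1, is the main connexin of the working ventricle. Connexin 40, from Gja5, is known from the atria, the conduction system and arterial endothelium, and mutations in desmosomal genes are known from arrhythmogenic cardiomyopathy.

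Depth lay between 19921398 and 37917806 counts per library. Values in cpm are counts scaled by library size and edgeR's TMM factors. The mean of Gch1 was 10.7 ± 0.979 cpm for WT hearts and 5.51 ± 0.859 cpm for cmGch1 KO hearts (SD, n = 6 each), with every cmGch1 KO library below every WT library. The labels give no sex, and cmGch1 KO replicates 2 and 3 alone had Xist above 1 cpm, at 87.1 and 99.6 cpm. Both had 0 counts of Uty, Kdm5d, Eif2s3y and Ddx3y, which lie on the Y chromosome. Every other library had counts of each, with Ddx3y at 76.0 to 90.7 cpm in WT and 78.8 to 89.6 cpm in cmGch1 KO. By these genes the female pattern occurred in cmGch1 KO only, so sex was not balanced between the genotypes. Replicates 2 and 3 of cmGch1 KO also had the smallest share of mitochondrial counts, 14.9% and 16.1% against 18.3% to 22.9% elsewhere. The 9 markers of ventricular cardiomyocytes, from Myh6 to Mybpc3, summed to between 66100 and 69767 cpm in WT and to between 60134 and 64757 cpm in cmGch1 KO. None of the 9 passed the test, and 7 had a log2 fold change below 0 and 2 above. In bulk tissue, fewer cells of a type and less RNA per cell cannot be told apart.

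Per length, the main ventricular connexin and the desmosome genes Dsp, Jup and Pkp2 stood far above the other connexin genes, and the desmosomal cadherin genes Dsg2 and Dsc2 lay between them. Dsp, encoding desmoplakin, which links the desmosome to intermediate filaments, had the highest level of the 10 genes, a mean of 103.9 RPKM (cpm per kilobase of exon) over the 12 libraries. It was followed by Gja1 at 52.1 RPKM. Next came Cdh2, encoding N-cadherin, at 39.8 RPKM, and Jup, encoding plakoglobin, at 38.6 RPKM, but Cdh2 exceeded Jup in 7 of 12 libraries only, so these neighbours did not differ beyond their spread. Pkp2, encoding plakophilin 2, was at 32.2 RPKM. After a gap of 3.36-fold came Dsg2 at 9.59 RPKM and Tjp1 at 9.43 RPKM, whose order was held in 6 of 12 libraries, and Dsc2 at 8.05 RPKM, which lay below Tjp1 in 9 of 12. Dsg2 and Dsc2 encode the desmosomal cadherins desmoglein 2 and desmocollin 2, and Tjp1 encodes ZO-1, a scaffold at the rim of gap junction plaques. The levels of Gjc1, which encodes connexin 45, and of Gja5 were 4.11 and 1.63 RPKM. All other neighbours kept their order in 11 or 12 of the 12 libraries. The length used is the exon union, all annotated exons of a gene joined, which can exceed that of the transcript expressed. For Gja1 it is 10257 bases over 8 transcripts and for Dsp 9659 over 3, so the order of genes depends on this choice of length. 

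**Figure D1:**
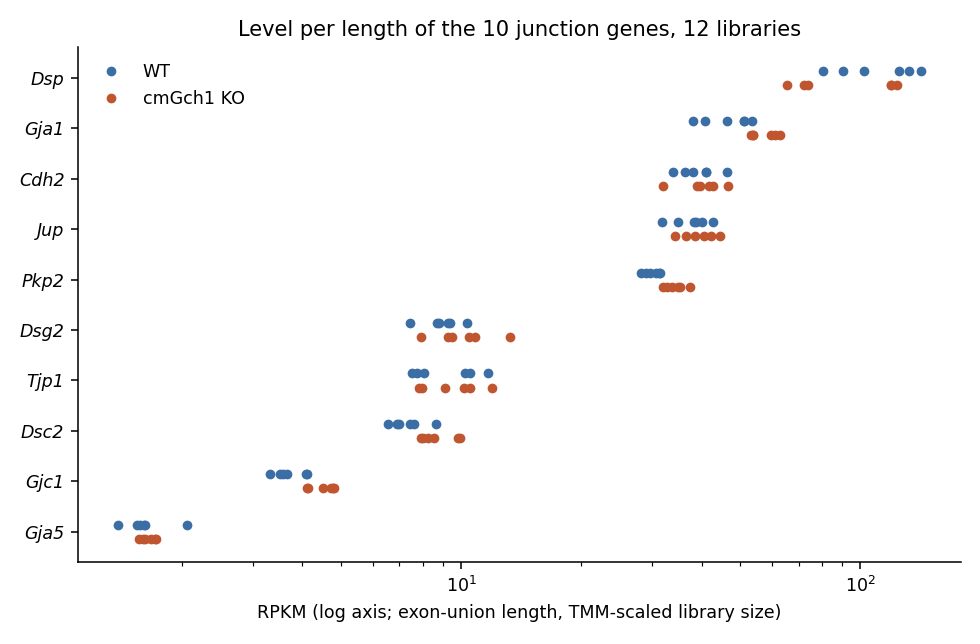
Level of each of the 10 junction genes in RPKM (by exon-union length) on a log axis, 1 point per library, WT in blue and cmGch1 KO in orange. Dsp is highest, at a mean of 103.9 RPKM, and Gja5 lowest, at 1.63 RPKM; Cdh2 and Jup lie at the same height.

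The 250 bases before the RefSeq start of the genes on which the results below turn are shown where the RefSeq table (GRCm38.p6) held them, each read 5′ to 3′ on the strand of its gene. Dsp, Jup and Tjp1 are shown because their levels were on average higher in the same set of 6 libraries, as described further on, Gja1 and Gja5 as the main ventricular and the arterial and conduction connexin, and Ctnna3 and Kcnd2 because they fell in cmGch1 KO hearts. The windows lie at chr10:56377050-56377299 (Gja1, plus strand), chr3:97032152-97032401 (Gja5, plus), chr13:38151044-38151293 (Dsp, plus), chr11:100397791-100398040 (Jup, minus), chr7:65371245-65371494 (Tjp1, minus), chr10:63429848-63430097 (Ctnna3, plus, the first of 3 starts listed) and chr6:21215096-21215345 (Kcnd2, plus). Gjc1, Pkp2, Dsg2, Dsc2 and Cdh2 had no entry, although Cdh2 and Dsg2 were also higher in that set of libraries. The windows of Gja5 and Tjp1 lie inside the gene spans given below, so these genes have other annotated starts. For Gja1, Jup and Kcnd2 the RefSeq start lies before the annotated span of the gene. Which start was used in these hearts was not measured. Capitals mark matches on either strand to 6 motifs: the GC box GGGCGG, AP-1 TGANTCA, the T-box site AGGTGT, NKX2-5 TNAAGTG, the GATA-factor site AGATAA and the TATA-box site TATAAA.
Gja1: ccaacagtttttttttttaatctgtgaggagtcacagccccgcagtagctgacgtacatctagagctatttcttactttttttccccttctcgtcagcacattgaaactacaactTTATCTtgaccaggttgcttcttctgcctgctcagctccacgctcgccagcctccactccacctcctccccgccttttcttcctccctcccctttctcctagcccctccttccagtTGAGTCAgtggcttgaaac
Gja5: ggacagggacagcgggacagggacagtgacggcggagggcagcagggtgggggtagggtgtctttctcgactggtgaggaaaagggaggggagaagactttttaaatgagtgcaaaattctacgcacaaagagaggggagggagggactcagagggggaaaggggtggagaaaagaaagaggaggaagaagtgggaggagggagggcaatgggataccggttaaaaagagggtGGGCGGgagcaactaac
Dsp: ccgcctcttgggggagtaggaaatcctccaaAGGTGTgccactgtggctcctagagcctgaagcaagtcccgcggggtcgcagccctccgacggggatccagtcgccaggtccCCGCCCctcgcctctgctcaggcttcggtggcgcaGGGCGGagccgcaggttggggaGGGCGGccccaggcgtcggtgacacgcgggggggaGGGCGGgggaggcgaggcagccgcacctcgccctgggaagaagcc
Jup: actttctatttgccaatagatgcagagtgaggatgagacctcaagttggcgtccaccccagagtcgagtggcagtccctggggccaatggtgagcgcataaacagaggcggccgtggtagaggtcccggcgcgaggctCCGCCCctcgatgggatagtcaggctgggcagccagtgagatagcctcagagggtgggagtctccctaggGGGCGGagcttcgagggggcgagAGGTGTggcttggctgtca
Tjp1: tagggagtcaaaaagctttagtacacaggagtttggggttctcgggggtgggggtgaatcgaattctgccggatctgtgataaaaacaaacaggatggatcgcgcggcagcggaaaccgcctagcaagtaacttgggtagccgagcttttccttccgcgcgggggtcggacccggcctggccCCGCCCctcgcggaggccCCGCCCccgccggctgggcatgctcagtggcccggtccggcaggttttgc
Ctnna3: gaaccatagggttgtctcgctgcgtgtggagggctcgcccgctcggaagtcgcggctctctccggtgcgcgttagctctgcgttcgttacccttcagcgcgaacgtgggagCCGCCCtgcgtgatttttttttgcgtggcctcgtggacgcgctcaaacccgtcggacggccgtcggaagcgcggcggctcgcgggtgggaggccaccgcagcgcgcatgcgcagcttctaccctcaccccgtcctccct
Kcnd2: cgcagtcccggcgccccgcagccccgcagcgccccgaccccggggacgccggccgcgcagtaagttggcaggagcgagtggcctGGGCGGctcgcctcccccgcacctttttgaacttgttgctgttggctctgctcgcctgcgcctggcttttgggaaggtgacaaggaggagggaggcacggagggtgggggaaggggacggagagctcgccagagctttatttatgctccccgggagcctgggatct

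The GC box was matched 4 times before Dsp, 2 times before Jup, 2 times before Tjp1 and 1 time each before Gja5, Ctnna3 and Kcnd2, and not before Gja1. Of all 32851 windows of this length in the table, 32.7% hold it. Before Gja1 an AP-1 match began 19 bases upstream of the start and a GATA match 135 bases upstream, motifs held by 6.75% and 9.99% of all windows. The T-box site was matched before Dsp and before Jup, at 219 and 19 bases, and 11.8% of all windows hold it. NKX2-5 and TATA box letters, held by 10.1% and 12.4% of all windows, were not in these 7 windows. The share of G and C was 50% before Gja1 and 72.4% before Dsp, with a median of 52.4% over all windows. The matched base strings of the motifs did not overlap, and a match describes the letters only.

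None of the 10 junction genes passed the test between the genotypes. By the quasi-likelihood test of edgeR, adjusted over the 11225 genes tested after Benjamini and Hochberg, 0 of 10 had an adjusted p under 0.05, where 0.677% of all tested genes were called higher and 0.445% lower. At an unadjusted p under 0.05, 4 of 10 genes were higher in cmGch1 KO (Gja1, Gjc1, Pkp2 and Dsc2) and 0 were lower, against 7.01% and 4.51% of all tested genes. The log2 fold change was above 0 for 9 of 10 genes and for 46.7% of all tested genes, with a median of 0.12 against -0.01. The median of the 10 was 0.08 without cmGch1 KO replicate 4 and 0.20 when scaled by library size alone, where that of all genes was 0.07. DESeq2's Wald test called 2 of 10 higher, Gjc1 and Pkp2, where it called 1.94% of all tested genes higher and 1.38% lower.

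Gja1 is the gene of connexin 43 and lies on chromosome 10 from 56377330 to 56402513 (GRCm38, plus strand). Its lowest, median and highest level was 390, 499 and 549 cpm in WT and 545, 581 and 644 cpm in cmGch1 KO. The groups overlapped by 1 library, since 5 of 6 cmGch1 KO libraries exceeded the highest WT library. The mean was 480 ± 64.0 cpm for WT hearts and 588 ± 44.2 cpm for cmGch1 KO hearts (SD, n = 6 each). The log2 fold change was 0.29 (SE 0.09, 95% interval 0.12 to 0.47), with an unadjusted p of 0.00589 and an adjusted p of 0.175 from edgeR's test.

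Gjc1 encodes connexin 45, known from the nodes and the conduction system, and has its place on chromosome 11, minus strand, 102799579 to 102819700. It was at 16.6, 18.1 and 20.5 cpm in WT and at 20.6, 23.1 and 23.9 cpm in cmGch1 KO (lowest, median and highest). The groups did not overlap, by a narrow margin, as was the case for 1.07% of all tested genes in this direction. The log2 fold change of 0.28 (SE 0.08, 95% interval 0.13 to 0.43) had an adjusted p of 0.117 by edgeR and of 0.0244 by DESeq2. In an exact permutation test of this single gene, two-sided and not adjusted over genes, p was 0.00216, the smallest that 6 libraries against 6 allow. Every gene whose groups do not overlap has this p, so it adds nothing to that statement.

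Gja5 was nearly level between the genotypes. This gene, on the plus strand of chromosome 3 from 96904693 to 97077416, was at 7.94, 9.10 and 11.8 cpm in WT and at 8.96, 9.42 and 9.87 cpm in cmGch1 KO. The log2 fold change was 0.01 (SE 0.09, 95% interval -0.17 to 0.19, adjusted p = 0.982 by edgeR). The highest value came from WT replicate 4, which also had the highest level of the atrial markers Myl7, Myl4 and Sln, at 121, 113 and 49.5 cpm. Myl7 lay between 3.26 and 84.8 cpm in the other 11 libraries. The deviation of Gja5 from the genotype mean and that of the 3 summed atrial markers had a Pearson r of 0.70 and a Spearman rho of 0.45 (n = 12, permutation p = 0.0432 and 0.172, adjusted over 43 relations 0.143 and 0.462). Without the 2 libraries farthest from the median of Gja5, r was 0.08, so the relation rested on those libraries. With log2 total counts Gja5 had r of 0.66 and rho of 0.74 (permutation p adjusted over 43 relations 0.0562 and 0.0642). Without the 2 farthest libraries that r was 0.63. With the summed conduction markers r was 0.26 and rho 0.66 (adjusted permutation p of 0.704 and 0.126), and with those of arterial endothelium r was -0.15 and rho 0.13. No relation of Gja5 passed after adjustment, and the part of atrial tissue in its level was not tested further. Of its exons, 165 bases (2.87%) also lie in Gpr89 on the opposite strand, and the strand setting of the counting is not given in the sources used here.

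The desmosome genes differed among themselves. Pkp2, on the plus strand of chromosome 16 from 16213318 to 16272712, encodes the armadillo protein that anchors desmoplakin to the desmosomal cadherins. Its levels were 151, 162 and 169 cpm in WT and 172, 184 and 201 cpm in cmGch1 KO (lowest, median and highest), and the groups did not overlap. Pkp2 was also the steadiest of the 10 genes among libraries in WT, with a coefficient of variation of 4.38%, where counting alone gives 1.65% at its lowest count. The log2 fold change was 0.19 (SE 0.06, 95% interval 0.08 to 0.31), with an adjusted p of 0.156 by edgeR and of 0.0229 by DESeq2.

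Dsc2 was at 34.5, 38.1 and 45.5 cpm in WT and at 41.7, 44.3 and 52.4 cpm in cmGch1 KO. The groups overlapped, although 5 of 6 WT libraries lay below the lowest cmGch1 KO library. Its log2 fold change was 0.25 (SE 0.09), with an adjusted p of 0.223 by edgeR. Its partner Dsg2 was at 61.4, 74.7 and 85.4 cpm in WT and at 65.4, 82.3 and 109.6 cpm in cmGch1 KO, with wide overlap and a log2 fold change of 0.18 (SE 0.11, adjusted p = 0.605 by edgeR). Both cadherin genes lie on chromosome 18, Dsc2 from 20030633 to 20059554 and Dsg2 from 20558074 to 20604521.

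Dsp, on the plus strand of chromosome 13 from 38151294 to 38198577, was the only one of the 10 genes with a log2 fold change below 0. Its level was 777, 1098 and 1370 cpm in WT and 633, 933 and 1193 cpm in cmGch1 KO (lowest, median and highest). The groups overlapped, and cmGch1 KO fell into replicates 1, 2 and 3 at 696, 633 and 716 cpm and replicates 4, 5 and 6 at 1151, 1193 and 1155 cpm. The log2 fold change was -0.23 (SE 0.19, 95% interval -0.60 to 0.14, adjusted p = 0.741 by edgeR). Without cmGch1 KO replicates 2 and 3, the libraries with high Xist, it was -0.05 (adjusted p = 0.999 by edgeR). Its coefficient of variation was 21.9% in WT and 28.9% in cmGch1 KO, where counting alone gives 0.857% at its lowest count. A predicted transcript on the opposite strand, Gm10129, shares 499 bases (5.17%) of its exons and was not in the count table.

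Jup, Cdh2 and Tjp1 differed by less than the spread between libraries. Jup, which serves in both desmosomes and adherens junctions and spans 100368958 to 100397763 of chromosome 11 on the minus strand, was at 205, 247 and 275 cpm in WT and at 221, 254 and 286 cpm in cmGch1 KO. Cdh2, at 16588877 to 16809246 of chromosome 18, minus strand, was at 274, 319 and 373 cpm in WT and at 258, 328 and 375 cpm in cmGch1 KO. Tjp1, at 65296165 to 65527781 of chromosome 7, minus strand, was at 58.7, 71.4 and 90.9 cpm in WT and at 61.2, 75.1 and 93.2 cpm in cmGch1 KO. In all 3 the groups overlapped widely, and the log2 fold changes were 0.06 (SE 0.08) for Jup, 0.03 (SE 0.09) for Cdh2 and 0.05 (SE 0.13) for Tjp1, with adjusted p by edgeR of 0.869, 0.959 and 0.952.

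**Figure D2:**
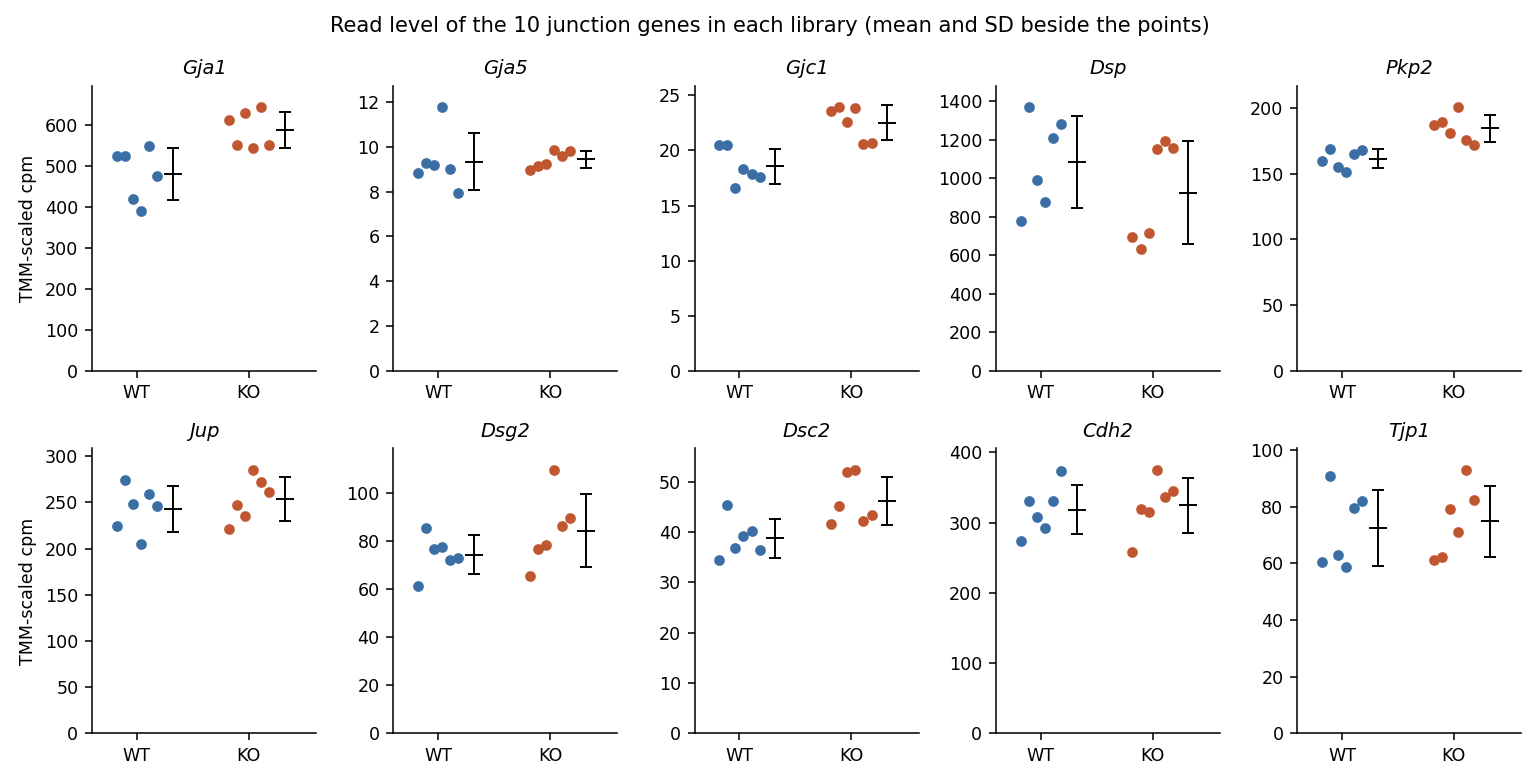
TMM-scaled cpm of each of the 10 junction genes in the 6 WT (blue) and 6 cmGch1 KO (orange) libraries, with the mean and SD in black. The cmGch1 KO points lie above all WT points for Gjc1 and Pkp2, and the Dsp points of cmGch1 KO form a low and a high cluster of 3 libraries each.

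Ratios within a library do not depend on the scaling between libraries, and 5 were compared by a two-sided exact permutation test. The ratio of Gja5 to Gja1 per length was 0.0293, 0.0309 and 0.0539 in WT and 0.0262, 0.0281 and 0.0323 in cmGch1 KO (lowest, median and highest), a log2 difference of -0.28 (exact p = 0.0736, adjusted over the 5 ratios 0.133). That of Gjc1 to Gja1 differed by -0.02 on the log2 scale (exact p = 0.877), since both genes were higher by nearly the same amount. Pkp2 to Dsp was at a median of 0.264 in WT and 0.379 in cmGch1 KO, a log2 difference of 0.44 (exact p = 0.0736, adjusted 0.133). For Jup to Dsp the log2 difference was 0.32 (exact p = 0.0801, adjusted 0.133), and for Dsc2 to Dsg2 it was 0.08 (exact p = 0.409, adjusted 0.511). None of the 5 ratios passed after adjustment. Without cmGch1 KO replicates 2 and 3 the log2 difference of Pkp2 to Dsp was 0.24 (exact p = 0.319) and that of Jup to Dsp 0.15 (exact p = 0.343).

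The levels of Dsp and Cdh2 divided the libraries, within each genotype, in the same way as the level of genes with long exon unions did. For each library, the median deviation from the genotype mean of the 1120 longest of the tested genes minus that of the 1120 shortest was taken as a measure, chosen after the values were seen. It fell into 2 sets of 6 libraries with 3 of each genotype, from -0.54 to -0.04 in WT replicates 1, 3 and 4 and cmGch1 KO replicates 1, 2 and 3, and from 0.22 to 0.36 in the others. Neither the labels nor the methods name a batch that divides the libraries in this way. Because the libraries formed sets, no correlation over all 12 is given for it.

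Between the sets the genotype-centred level of Dsp differed by 0.66 on the log2 scale, that of Tjp1 by 0.37, that of Cdh2 by 0.24, that of Dsg2 by 0.23 and that of Jup by 0.21, each higher where long genes were higher. For Dsp and Cdh2 no library of one set reached the other set, and the share of all tested genes split in this way was not counted. The first principal component of all tested genes, their main axis of variation with genotype means removed, held 39.63% of the variance. It divided the libraries in the same way, so the split is not particular to these genes. The differences were smaller for Gja1 (0.09), Dsc2 (0.07), Pkp2 (0.04), Gja5 (-0.04) and Gjc1 (-0.05). By exon union Gja1, at 10257 bases, counts among the longest genes and Dsp, at 9659, does not. The length of the transcripts expressed was not measured, so no departure of Gja1 from long transcripts can be read from this. Within the sets, Pearson's r between the measure and the gene (n = 6 each, given as a description) was 0.36 and 0.12 for Dsp, 0.89 and 0.12 for Cdh2, 0.79 and 0.66 for Tjp1, 0.59 and -0.19 for Jup, and 0.61 and -0.27 for Dsg2. The sign thus differed between the sets for Jup and Dsg2. The deviations were not centred by genotype again within a set.

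**Figure D3:**
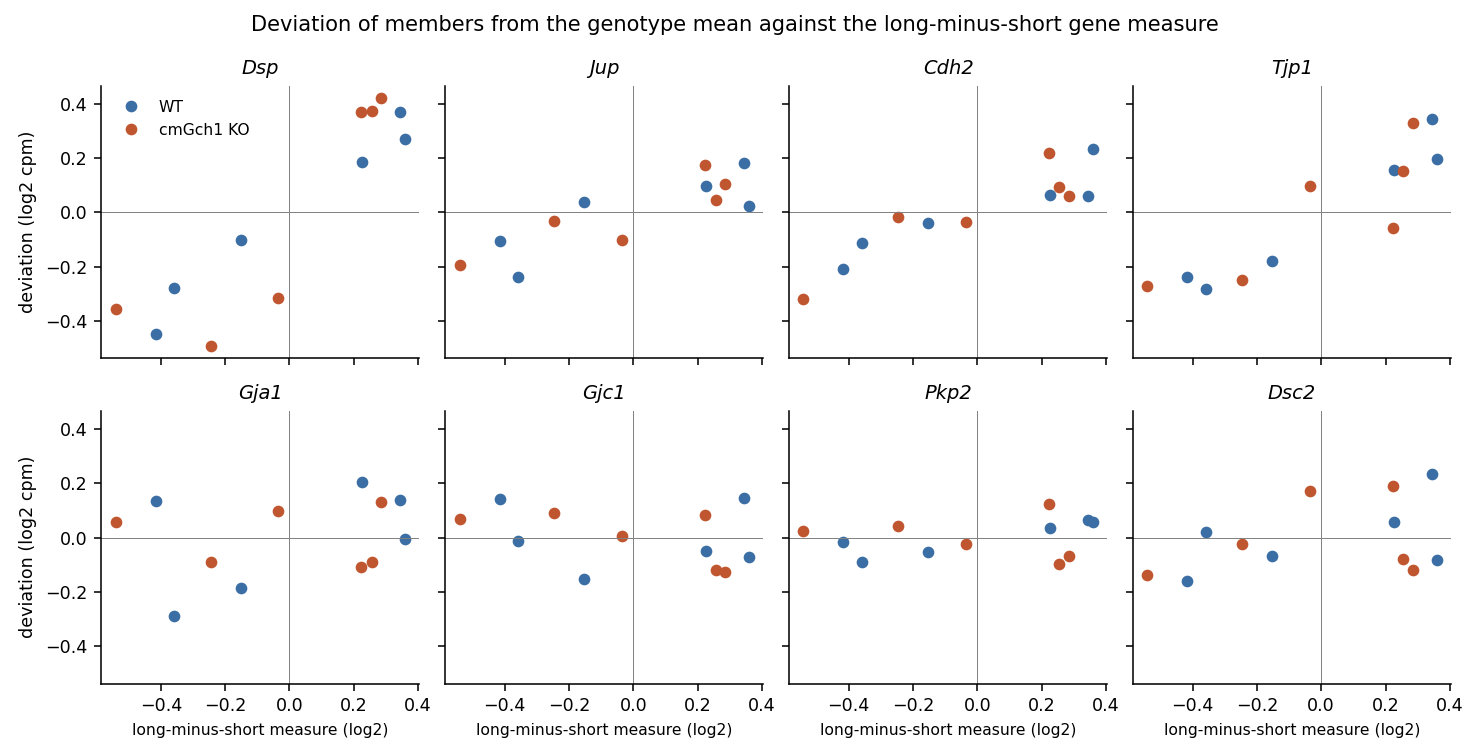
Deviation of 8 junction genes from their genotype mean (log2 cpm) against the long-minus-short gene measure (log2), 1 point per library, WT in blue and cmGch1 KO in orange. Dsp and Cdh2 are split by the gap in the measure between -0.04 and 0.22, and Gja1, Gjc1, Pkp2 and Dsc2 are not.

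Within each set, 3 cmGch1 KO libraries stand against 3 WT libraries, and an exact two-sided permutation test of 3 against 3 cannot go below 0.10, so none is given. Dsp averaged 881 (WT) and 682 cpm (cmGch1 KO) in the set with lower long genes, and 1286 and 1166 cpm in the other. In both sets every cmGch1 KO library lay below every WT library of that set, as it did for 2.16% of all tested genes. Without cmGch1 KO replicates 2 and 3, the only cmGch1 KO library left in the set with lower long genes is replicate 1, at 696 cpm. Gjc1 and Pkp2 lay above WT in this way in both sets, as did 2.49% of all tested genes. The log2 differences in the 2 sets were -0.36 and -0.14 for Dsp, 0.34 and 0.21 for Gjc1, and 0.26 and 0.12 for Pkp2.

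With the measure, not centred by genotype, as a covariate in edgeR, an alternative added after the values were seen, 2 of 10 junction genes were called higher, where 2.71% of all tested genes were called higher and 2.89% lower. They were Gjc1 (log2 fold change 0.28, adjusted p = 0.0302, edgeR) and Pkp2 (0.19, adjusted p = 0.0282, edgeR). The adjusted p of Gja1 was 0.0562, that of Dsc2 0.0744 and that of Dsp 0.0929 in this edgeR fit, at log2 fold changes of 0.29, 0.25 and -0.25.

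Pairs of the 10 genes were compared by their deviations from the genotype means. By a permutation test over the 12 libraries, 0 of 45 pairs passed after Benjamini-Hochberg adjustment and 10 had an unadjusted p under 0.05. These pairs span both sets of libraries, and within the sets the sign of r was positive in both for 14 pairs, negative in both for 9 and mixed for 22. Gjc1 and Pkp2 had r of 0.60 and 0.77 within the sets, and Dsp and Dsg2 had 0.63 and 0.55 (n = 6 each, as a description). The deviations were not centred again within a set, so genotype differences that vary between the sets enter these r. 

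The genes most like each junction gene, by Pearson's r of these deviations over 12 libraries and 11224 other genes, were not other junction genes. For Gja1 they were Sirpa, Wwtr1 and Myo6 (r of 0.95, 0.94 and 0.92). For Dsp they were Map4, Dennd4c and Ubr3 (0.98, 0.98 and 0.97), for Cdh2 Braf, Ktn1 and Camsap2 (each 0.96), and for Pkp2 Eef2k, Acot6 and Fam214a (0.88, 0.87 and 0.85). The first for Gjc1 was Olfml1 (0.89), for Jup Aldh5a1 (0.94), for Tjp1 Sbf2 (0.98), for Dsg2 Nars (0.95), for Dsc2 Bbs1 (0.93) and for Gja5 Casc1 (0.89). None of the 10 had another of the 10 among its first 100 genes, and the nearest was Gjc1, in place 220 for Pkp2. With so few junction genes among 11224, hardly any would stand among 100 by chance, so nothing is read from this. The values of r are descriptions and span both sets of libraries.

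Among other genes listed for the disc and its regulation, 2 fell and none rose. Of 91 genes listed by role, 62 were tested. These include 11 genes for the trafficking and turnover of connexin 43 and 16 transcription factors, which are not themselves parts of the disc. By edgeR 2 of the 62 were called lower and 0 higher at an adjusted p under 0.05, with 3 and 7 at an unadjusted p under 0.05. Of all tested genes 0.445% were called lower and 0.677% higher, and 4.51% and 7.01% had an unadjusted p under 0.05. The lists were chosen with earlier results of these data known, so the counts are a description and no support for a change of the disc genes. Ctnna3 encodes αT-catenin, a heart-enriched catenin that links cadherins to actin and binds plakophilin 2, and it lies on the plus strand of chromosome 10 from 63430098 to 65003667. It was at 21.9, 27.9 and 38.1 cpm in WT and at 11.1, 15.8 and 16.9 cpm in cmGch1 KO (lowest, median and highest). The groups did not overlap, and 0.802% of all tested genes were separated in this direction.

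The level of Ctnna3 fell by 0.93 on the log2 scale (SE 0.15, adjusted p = 0.00672, edgeR), to 14.9 ± 2.36 cpm from 28.5 ± 6.48 cpm (SD, n = 6 each). It stayed below WT in both sets of libraries, at 13.7 against 23.0 cpm and at 16.2 against 34.0 cpm. Without cmGch1 KO replicates 2 and 3 the log2 fold change was -0.94 and the adjusted p by edgeR 0.0549. The other 9 tested catenin and linker genes did not pass: Ctnna1, encoding αE-catenin, was at 441 ± 51.7 and 492 ± 52.0 cpm (adjusted p = 0.581 by edgeR), and Ctnnb1, encoding β-catenin, at 377 ± 40.1 and 377 ± 32.1 cpm (SD, n = 6 each). Ctnna3 was the scarcest per length of these 3, at 3.94 RPKM in WT against 68.6 for Ctnna1 and 72.5 for Ctnnb1.

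Kcnd2 encodes Kv4.2, a potassium channel of the transient outward current, and lies on the plus strand of chromosome 6 from 21215503 to 21729805. Its levels were 21.3, 25.7 and 30.3 cpm in WT and 14.5, 16.2 and 17.4 cpm in cmGch1 KO, again with no overlap. The level fell by 0.65 on the log2 scale (SE 0.09, adjusted p = 0.00241, edgeR) and was lower in both sets of libraries. Of the 20 genes listed as disc-associated adaptors and channels it was the 1 that passed. Bves of this list, encoding a Popeye domain protein, did not pass by edgeR, at a log2 fold change of 0.23 (adjusted p = 0.249).

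**Figure D4:**
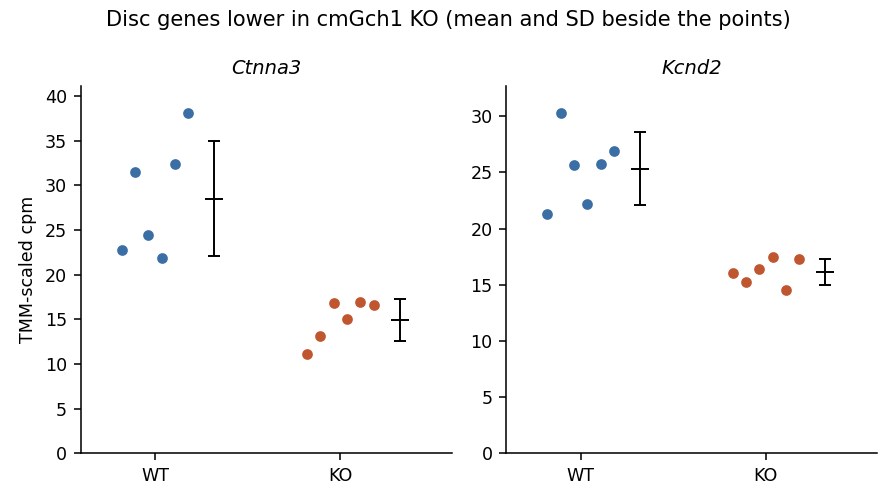
TMM-scaled cpm of Ctnna3 and Kcnd2 in the 6 WT (blue) and 6 cmGch1 KO (orange) libraries, with the mean and SD in black. All cmGch1 KO points lie below all WT points, at up to 16.9 cpm for Ctnna3 and up to 17.4 cpm for Kcnd2.

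The remaining lists held no called gene. Of 18 other connexin and pannexin genes in the table, 2 passed the filter on low counts: Gja3, encoding connexin 46, at a log2 fold change of -0.20 (SE 0.11) and Gja4, encoding the endothelial connexin 37, at 0.06 (SE 0.14), with adjusted p by edgeR of 0.540 and 0.940. Gja10 and Gjd4 had 0 counts in all libraries, which allows at most 0.151 cpm in the shallowest library, a limit for counting error only. Of the other desmosomal genes 3 of 13 passed the filter, with Des, encoding desmin, at 0.18 (SE 0.08, adjusted p = 0.407 by edgeR). In the list of 11 genes for the trafficking and turnover of connexin 43 the largest value was that of Dbn1, encoding the actin-binding drebrin (0.31, SE 0.12, adjusted p = 0.314 by edgeR). The median log2 fold change was 0.02 over that list and 0.02 over 16 transcription factors of junction and conduction genes, against -0.01 over all tested genes.

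**Figure D5:**
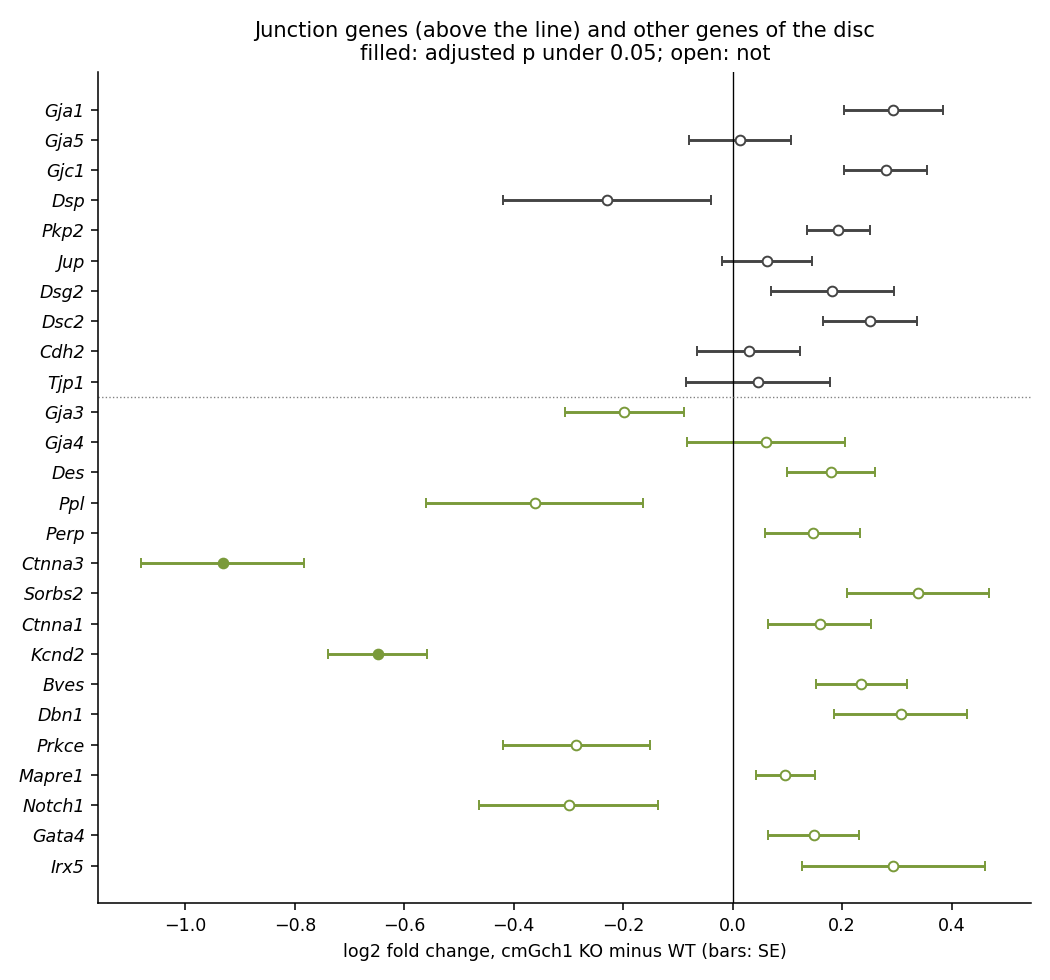
Log2 fold change between the genotypes, cmGch1 KO over WT, with its SE for the 10 junction genes (above the dotted line) and for some genes of the other lists. Filled points, Ctnna3 at -0.93 and Kcnd2 at -0.65, had an adjusted p under 0.05 in edgeR; all 10 junction genes are open.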

How the data were processed

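The 12 left ventricular RNA libraries were analysed, 6 per genotype, with groups and replicate numbers from the labels. The methods define n as a single animal. Per the labels and methods, the authors made stranded dUTP libraries, aligned reads with HISAT2 to GRCm38 and deposited raw counts per Ensembl gene from featureCounts. The annotation and strand setting of the counting are not given in the sources used here. The authors also deposited normalized values on a log2-like scale, used here as an alternative only; the tool behind them is not given in the sources used here.

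Of 26921 gene IDs, 26582 matched GENCODE M21 (GRCm38), which gave symbols, coordinates and exon-union lengths. Counts were tested with edgeR 4.0.16 in R 4.3.3 (TMM, cpm over 3 in at least 6 libraries, 11225 genes, Benjamini-Hochberg threshold 0.05), as the methods name edgeR, the cpm minimum and the FDR. The scripts were tested on simulated data with 50 genes changed at each fold. There edgeR recovered 18% at 1.25-fold, 64% at 1.5-fold and 94% at 2-fold. Single genes and ratios used exact permutation tests over 924 splits, and correlations 100000 permutations within genotype. The 95% intervals are 1.96 SE, and an offset of 0.5 cpm was used for log2 deviations. A count of 0 was taken to allow 3 counts, which covers counting error only.

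Named genes were the 10 junction genes, Gch1, and Xist with the Y-linked genes. In each list they were every gene that passed and otherwise the 3 with the smallest unadjusted p, and the genes most like each member were added. Other genes named with a value are Ctnnb1, Myl7, Myl4, Popdc2, Dsc1 and, at 0 counts, Gja10, Gjd4 and Krt5, all chosen after their values were seen. Not every gene of the rule is reported here. The members and lists were chosen with earlier results of these data known. Alternatives were the size factors and the Wald test of DESeq2 1.42.0, library size alone, limma 3.58.1 on the deposited log2 values, no filter, filterByExpr, the replicate number as a block, a sex-linked covariate, leaving out the 2 libraries with high Xist, and leaving out each library. The exon length covariate was added after the values were seen.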

Additional observations from a re-analysis of the deposited data

Results flagged for a closer look

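In 2 of 70 groups of 6 values examined (2.86%), 1 library stood apart from the other 5 of its genotype by Dixon's test at the 95% level, where chance flags about 1 in 20. Gja5 in WT replicate 4 was at 11.78 cpm, with the next highest WT library at 9.29 cpm; without that library the log2 fold change of Gja5 was 0.09. Dbn1, encoding drebrin, was at 17.21 cpm in cmGch1 KO replicate 2, with the next highest cmGch1 KO library at 12.77 cpm. That library was also 1 of the 2 with high Xist and a low share of mitochondrial counts. Without it the log2 fold change of Dbn1 was 0.19, in place of 0.31.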

How the results depend on the processing

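No junction gene was called lower in any setting, and 0 of 10 were called higher except with DESeq2 (2, Gjc1 and Pkp2) and with the exon length covariate (the same 2). Of the 62 other listed genes tested, 2 were called lower except without the 2 libraries with high Xist (1, Kcnd2). Of these 62, 0 were called higher except with the length covariate (2, Ctnna1 and Popdc2). With no filter 1 more listed gene, Dsc1, not among the 62 and with 44 counts in all, was called higher. All tested genes gave 50 lower and 76 higher, with DESeq2 155 and 218, with the sex-linked covariate 24 and 38, without both high-Xist libraries 18 and 16, with the length covariate 324 and 304, with library size alone 36 and 116 (median of all genes 0.07 in place of -0.01), and with 1 library left out 28 to 96 and 44 to 111; the extremes came without WT replicate 3 and without cmGch1 KO replicate 1. With the replicate number as a block, 76 were lower and 112 higher, but the numbers do not pair the samples: same-numbered deviations correlated between -0.13 and 0.68, and 3 of 6 numbers had their best partner in their own number. Leaving out 1 library turned the sign of values near 0: Gja5 (-0.0280 to 0.0917), Cdh2 (-0.0166 to 0.0868), Tjp1 (-0.0277 to 0.122), Gja4 (-0.0193 to 0.137) and the ratio of Gjc1 to Gja1 (-0.0697 to 0.0362). With no filter Gja5 was at -0.0040, and without the high-Xist libraries the ratio of Dsc2 to Dsg2 was -0.0091. On the deposited values the ratio of Gja5 to Gja1 was -0.28 with an exact p of 0.0498. The ratios of Pkp2 to Dsp (0.34 to 0.54) and of Jup to Dsp (0.22 to 0.38) had an exact p under 0.05 with 1 library left out in 2 and 3 of 12 fits, without cmGch1 KO replicates 5 and 6 for both and without WT replicate 1 for the latter; without both high-Xist libraries they were 0.237 and 0.147 (exact p = 0.319 and 0.343). The cause of these shifts was not tested. For Gja5 counting alone gives a coefficient of variation of 7.60% at its lowest count of 173, against 13.8% between WT and 3.93% between cmGch1 KO libraries; for the other 9 genes the spread between libraries exceeded the counting error in both groups.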

Other observations

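Genes of other heart cells were examined beside the junction genes. Of the 6 tested markers of atrial cardiomyocytes, Nppa, encoding atrial natriuretic peptide, rose by 1.53 on the log2 scale (SE 0.30, adjusted p = 0.0240, edgeR), with WT at 67.0 to 264 cpm and cmGch1 KO at 202 to 681 cpm. Without cmGch1 KO replicates 2 and 3 its log2 fold change was 1.30 (adjusted p = 0.176, edgeR), and with 1 library left out it passed in 6 of 12 fits, but not without WT replicate 2, 3 or 5 or cmGch1 KO replicate 2, 3 or 4 (adjusted p from 0.0102 to 0.0703 over the 12, edgeR). Myl7 and Myl4, atrial myosin light chains, did not pass, at 0.11 (SE 0.65) and 0.17 (SE 0.60). Acta2, encoding smooth muscle α-actin, rose by 0.66 (SE 0.11, adjusted p = 0.00672, edgeR), from 113 to 145 cpm in WT to 163 to 243 cpm in cmGch1 KO, and without those 2 libraries it was at 0.51 (adjusted p = 0.0506, edgeR). Other markers of smooth muscle and pericytes in the list of 8 did not pass, and 6 of the 8 had a log2 fold change below 0, among them Tagln (-0.40) and Myh11 (-0.24), with a list median of -0.07.

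All 6 tested macrophage markers had an unadjusted p under 0.05 and were higher in cmGch1 KO, where 7.01% of all tested genes were, and none passed after adjustment by edgeR. The 7 listed markers summed to between 134 and 173 cpm in WT and to between 168 and 214 cpm in cmGch1 KO. Csf1r, encoding a receptor that macrophages need to survive, had a log2 fold change of 0.21 (SE 0.07, adjusted p = 0.248, edgeR). No tested marker was called by edgeR in the lists for ventricular cardiomyocytes (9 tested), the conduction system (5), endothelium (8), arterial endothelium (7), fibroblasts (8), mesothelium and epithelium (1) or nerve and glia (2), whose median log2 fold changes were -0.16, 0.02, 0.05, -0.18, 0.13, 0.01 and 0.06. Among the keratins listed, Krt5 had 0 counts in all libraries.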
